A study of Mus musculus with 12 samples.

Results

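The laminin chains expressed in the abdominal aorta were examined in 12 male mice by RNA-Seq, which counts fragments of poly(A) messenger RNA per gene. The 9 genes were taken by symbol from the deposited table of 55092 features, and comprised the α chains Lama2, Lama3, Lama4 and Lama5, the β chains Lamb1, Lamb2 and Lamb3, and the γ chains Lamc1 and Lamc3. Levels are given as FPKM, which corrects the fragments counted for the exonic length of the gene and for the size of the library. This length merges all annotated exons, and its excess over the coding length differs between chains. Lama4 has 12068 exonic bases and 5451 coding bases in its principal transcript, while Lama5 has 11388 and 11157. The order of chains and their shares in FPKM depend on this length, whereas comparisons of 1 chain between groups do not. Each mouse gave 1 library, and there were 3 mice in each of 4 groups. CFS and CFA mice carried floxed CCN2 alleles and no Cre (CCN2fl/fl), and received saline or Ang II. CSS and CSA mice carried the same floxed alleles with Myh11-Cre-ERT2 (CCN2SMCΔ), in which a smooth muscle promoter drives a tamoxifen-dependent Cre, and received saline or Ang II. All 4 groups were given 5 tamoxifen doses from 8 weeks of age and were left for 2 weeks before the pumps were placed. Ang II was delivered at 500 ng/kg/min, and the infusion lasted 7 days. Since the control mice lacked Cre, the deletion and the Cre transgene cannot be told apart.

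A laminin is a trimer of 1 α, 1 β and 1 γ chain, assembled in the cell and secreted as a cross-shaped or rod-shaped molecule. Laminins polymerise into the sheet on which the other components of a basement membrane are laid, and the end of the α chain binds integrins and dystroglycan on the cell. In an artery each smooth muscle cell of the media is wrapped in a basement membrane, and the endothelium lies on another.

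The libraries held 14558580 (CSA03) to 23107807 fragments, recovered from the FPKM and exon lengths. The CSA03 library stood apart from the other mice of its group. Its root mean square log2 distance was 1.213 from CSA01 and 1.199 from CSA02, which lay 0.505 from each other. CFA72 was almost as near to CSA01 and CSA02, at 1.256 and 1.227. Ccn2, the targeted gene, was at 710, 1108 and 480 FPKM in CFS mice and at 436, 640 and 587 in CSS mice, so that both saline groups overlapped. It was at 1013, 1105 and 564 FPKM in CFA mice and at 255, 331 and 399 in CSA mice, and fell by 1.41 on the log2 scale between them (SE 0.34, adjusted p = 0.00622, limma). Summed over 9 smooth muscle markers, the level was 8383 to 10520 FPKM in CFS mice and 5683 to 8566 in CFA mice, against 819 to 974 in CSA mice. Differences below are on the scale log2(FPKM + 0.1) and were tested with limma over 14676 genes, and "rose" and "fell" refer to a Benjamini-Hochberg adjusted p under 0.05.

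In the 2 saline groups and in CFA mice, the laminin transcripts of the aorta were dominated by Lamb2, the β2 chain common in muscle basement membranes. In CFS mice it averaged 180 FPKM, followed by Lamc1 at 52.2 and Lama5 at 50.2, whose mice overlapped, and then by Lama4 at 21.2 and Lamc3 at 19.4, whose mice also overlapped. Lama2 at 8.22 and Lamb1 at 4.89 overlapped each other, Lama3 lay at 1.34, and Lamb3 was last at 0.126. CFA mice kept the order of CFS mice, with the same overlaps except that Lama2 and Lamb1 were separate. In CSS mice Lama5 at 64.9 stood above Lamc1 at 54.7, which it overlapped, and Lamc3 at 23.4 stood above Lama4 at 18.4 without overlap. In CSA mice Lamb2 at 38.97 and Lamc1 at 30.5 overlapped, Lama5 at 11.7, Lamb1 at 10.6 and Lama4 at 7.88 formed a second overlapping group, and Lama2 followed at 1.67. Lama3 at 0.410, Lamc3 at 0.338 and Lamb3 at 0.225 FPKM came last, with Lamc3 overlapping both of the others, so that Lamc3 moved from the middle of the order to the level of the chains that are barely present.

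**Figure D1:**
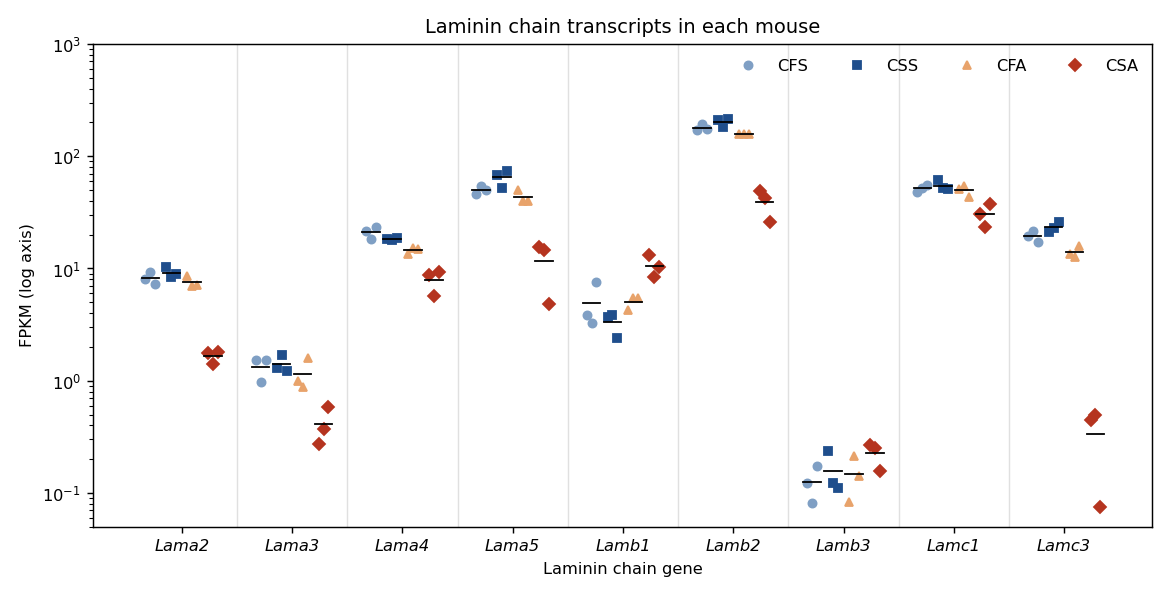
FPKM (log axis) of the 9 laminin chain genes, 1 point per mouse in the CFS, CSS, CFA and CSA groups, with a bar at each group mean. The 3 CSA mice lie below all others for Lama2, Lama3, Lama4, Lama5, Lamb2, Lamc1 and Lamc3, and above all others for Lamb1.

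The comparison of CSA with CFA mice set the 2 genotypes side by side in the Ang II-infused aorta. The paper reports infrarenal aneurysms in nearly all CCN2SMCΔ mice on this infusion, and a few mild thoracic or suprarenal ones in controls. It took the RNA from the infrarenal aorta, and the labels give no lesion state per mouse. Genotype and aneurysm therefore cannot be told apart in this comparison. Of the 9 chains, 8 passed the filter on low values. Of these 7 fell and 1, Lamb1, rose in CSA mice, where 21.2% of all tested genes fell and 19.5% rose. In either direction 40.7% of tested genes were called. The groups did not overlap for any of the 8 chains, nor for 48.5% of all tested genes. With the study's fold limit of 1.5 on the log2 scale added, 4 chains fell and 0 rose, against 8.27% and 8.95% of all genes. The median difference over the 8 chains was -1.67, beside -0.04 over all genes tested. In bulk tissue, fewer cells of a type and less RNA per cell cannot be told apart.

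Lamc3, the γ3 chain, showed the largest difference of the 8. It was at 13.4, 12.8 and 16.0 FPKM in CFA mice and at 0.445, 0.495 and 0.075 in CSA mice, where these values rest on 55, 64 and 7 fragments. All CSA mice were far below all CFA mice, and CSA03 was the lowest. The difference was -5.20 (SE 0.37, adjusted p = 2.80e-06, limma), and the ratio of means was 41.6-fold lower in CSA mice. Of the 14676 genes tested, it had the 12th lowest difference. Without CSA03 it was -4.63, and with a pseudocount of 1 it was -3.50. Lamc3 lies at chr2:31887291-31946539, and 6.27% of its exonic bases are shared with Gm13441 on the opposite strand, whose fragments cannot be separated if counting was unstranded.

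Lamc1, the γ1 chain that most laminins carry, changed less. It was at 51.5, 53.9 and 43.2 FPKM in CFA mice and at 30.3, 23.5 and 37.6 in CSA mice. The groups did not overlap, but the lowest CFA mouse and the highest CSA mouse were close. The difference was -0.72 (SE 0.17, adjusted p = 0.00613), and the adjusted p was 0.0522 when only these 2 groups were fitted. Lamc1 lies at chr1:153218922-153332786. Lamc3 made up 19.2% to 27.0% of the summed γ FPKM in CFA mice and 0.199% to 2.07% in CSA mice, so that nearly all γ chain transcripts of CSA aortas were Lamc1.

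Among the β chains, Lamb2 and Lamb1 moved in opposite directions. Lamb2 was at 156, 159 and 159 FPKM in CFA mice and at 48.6, 42.3 and 25.95 in CSA mice. The difference was -2.07 (SE 0.20, adjusted p = 1.65e-05), and it was -1.80 without CSA03, the lowest of the 3. Lamb1, the β1 chain that is widespread in embryonic and many adult basement membranes, was at 4.25, 5.41 and 5.40 FPKM in CFA mice and at 13.2, 8.38 and 10.3 in CSA mice. All 3 CSA mice exceeded all CFA mice, and CSA01 was the highest. The difference was 1.05 (SE 0.30, adjusted p = 0.0174), a mean 2.11-fold higher. This call was lost when CFA71 was left out (0.94, adjusted p = 0.0649) and when CSA01 was left out (0.88, adjusted p = 0.0609). Lamb1 thus went from 2.64% to 3.29% of the summed β FPKM in CFA mice to 16.4% to 28.2% in CSA mice, and the ratio of Lamb2 to Lamb1 went from 29.4 to 36.8 down to 2.53 to 5.05. Lamb2 lies at chr9:108479736-108490530 and Lamb1 at chr12:31265234-31329644.

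The summed β FPKM itself was 163 ± 2.21 (SD, n = 3) in CFA mice and 49.8 ± 12.9 in CSA mice, so the gain of Lamb1 was small in absolute terms beside the loss of Lamb2. Lamb3, the β chain of epithelial anchoring laminin, was close to the limit of detection in every group. It was at 0.083 to 0.214 FPKM in CFA mice and 0.158 to 0.268 in CSA mice, with 10 to 36 fragments per library over all 12 mice, and was not tested. Without the filter its difference was 0.42 (adjusted p = 0.46).

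**Figure D2:**
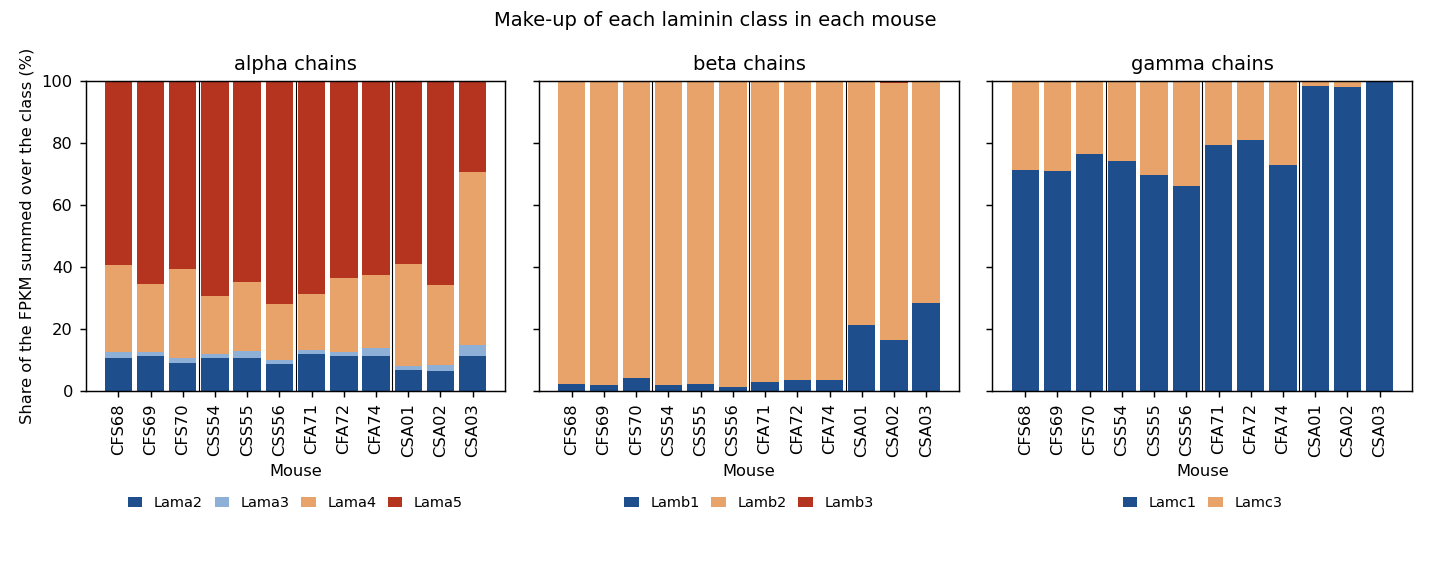
Share of each chain in the FPKM summed over the α, β and γ chains (percent, stacked bars, 1 bar per mouse, groups separated by lines). In the 3 CSA mice Lamb1 takes 16.4% to 28.2% of the β total and Lamc3 at most 2.07% of the γ total.

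The 4 α chains among the members, which carry the receptor-binding end, all fell. Lama2, the α2 chain of muscle and Schwann cell basement membranes, was at 8.61, 7.04 and 7.06 FPKM in CFA mice and at 1.78, 1.41 and 1.82 in CSA mice. CSA mice were well separated from CFA mice and close to each other, and the difference was -2.12 (SE 0.15, adjusted p = 2.63e-06). Lama5, the α5 chain of mature vessels, was at 50.5, 40.2 and 39.7 FPKM in CFA mice and at 15.7, 14.5 and 4.85 in CSA mice. All CSA mice were below all CFA mice, and CSA03 was the lowest. The difference was -2.05 (SE 0.36, adjusted p = 0.000977), and -1.51 without CSA03.

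Lama4, the α4 chain that endothelial cells and muscle make, was at 13.4, 15.1 and 15.01 FPKM in CFA mice and at 8.71, 5.68 and 9.25 in CSA mice. It fell by 0.90 on the log2 scale (SE 0.18, adjusted p = 0.00182), less than Lama2 or Lama5. Lama3, the α3 chain of epithelia, was low in every group, at 0.99, 0.87 and 1.58 FPKM in CFA mice and 0.28, 0.37 and 0.58 in CSA mice. It fell by 1.29 (SE 0.32, adjusted p = 0.00825), and the adjusted p was 0.0676 when only these 2 groups were fitted. With a pseudocount of 1 the difference was -0.60. The summed α FPKM was 66.7 ± 5.89 in CFA mice and 21.6 ± 4.97 in CSA mice (SD, n = 3). Lama5 held 62.7% to 68.7% of it in CFA mice and 59.3%, 66.0% and 29.4% in CSA01, CSA02 and CSA03. Lama4 held 18.2% to 23.9% in CFA mice and 33.0%, 25.9% and 56.1% in CSA01, CSA02 and CSA03, and exceeded Lama5 in CSA03 only.

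Lama2 lies at chr10:26980036-27619758, Lama4 at chr10:38965515-39110188, Lama5 at chr2:180176373-180225859 and Lamb3 at chr1:193207699-193343878 of GRCm38. Of the exonic bases, 3.86% of Lama2 are shared with Gm48084 and 1.83% of Lama3 with Gm29200, both on the opposite strand.

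The RefSeq promoter table of GRCm38.p6 matched 5 of the 9 members. The 250 bases before the RefSeq start are shown for 3 chains that fell, Lama2, Lama5 and Lamb2, and for Lamb1, which rose, 5′ to 3′ on the strand of the gene. The RefSeq start lies inside the GENCODE span given above for Lama2, Lamb2 and Lamb1, and at its edge for Lama5. Capitals mark matches, on either strand, to the CArG box, which serum response factor binds in smooth muscle genes, or to GGGCGG, the GC box bound by Sp family factors. GGAATG, bound by TEAD factors, and TGANTCA, bound by AP-1, were also searched and had no match in these 4. No matches overlapped.
Lama2, chr10:27616943-27617192, minus strand: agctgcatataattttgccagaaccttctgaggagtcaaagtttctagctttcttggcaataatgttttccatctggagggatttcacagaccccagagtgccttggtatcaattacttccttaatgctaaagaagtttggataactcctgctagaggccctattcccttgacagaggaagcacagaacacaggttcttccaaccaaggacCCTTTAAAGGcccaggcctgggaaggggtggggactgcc
Lama5, chr2:180225860-180226109, minus strand: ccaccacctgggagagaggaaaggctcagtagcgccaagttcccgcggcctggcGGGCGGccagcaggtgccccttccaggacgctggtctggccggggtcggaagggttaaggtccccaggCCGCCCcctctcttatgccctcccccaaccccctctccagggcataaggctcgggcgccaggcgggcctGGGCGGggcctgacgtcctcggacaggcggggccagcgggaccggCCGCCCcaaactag
Lamb2, chr9:108479612-108479861, plus strand: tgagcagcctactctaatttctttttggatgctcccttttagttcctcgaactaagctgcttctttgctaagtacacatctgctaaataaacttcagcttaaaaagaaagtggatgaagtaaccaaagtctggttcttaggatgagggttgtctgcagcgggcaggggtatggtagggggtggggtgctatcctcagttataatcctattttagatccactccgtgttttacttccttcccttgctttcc
Lamb1, chr12:31265043-31265292, plus strand: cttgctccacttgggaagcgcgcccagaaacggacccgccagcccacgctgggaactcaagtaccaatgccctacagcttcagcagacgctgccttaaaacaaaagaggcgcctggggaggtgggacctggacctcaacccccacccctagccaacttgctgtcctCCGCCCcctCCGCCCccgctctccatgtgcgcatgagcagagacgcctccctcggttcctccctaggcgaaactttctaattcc

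Lama2 held 1 CArG box, whose first base lies 39 bases before the RefSeq start, and 1.47% of the 32841 promoters in the table held one. Lama5 held 4 GC boxes and Lamb1 held 2, and 32.7% of promoters held at least 1. Lamb2 held no match to any of the 4 motifs, and the shares for GGAATG and TGANTCA over all promoters were 12.6% and 6.75%. GC content was 47.2% for Lama2, 72.4% for Lama5, 43.6% for Lamb2 and 62.0% for Lamb1, so chains that fell lay on both sides of the one that rose.

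Under saline the genotype comparison gave a different picture. Between CSS and CFS mice 0 of the 8 chains passed the test, as against 0.0204% of all genes (3 of 14676, with 924 at an unadjusted p under 0.05). None of the 8 had an unadjusted p under 0.05 in this fit. In a fit of these 2 groups alone, 46 of all tested genes were higher and 29 lower, and again 0 chains passed. The estimates ran from -0.48 for Lamb1 to 0.36 for Lama5, with a median of 0.12 beside 0.01 over all genes, and the groups overlapped for every chain, while 20.4% of all tested genes had groups that did not. Lamc3 was at 19.7, 21.4 and 17.1 FPKM in CFS mice and at 21.2, 22.8 and 26.1 in CSS mice, and its 95% interval ran from -0.55 to 1.09. Lamb2 was at 172, 193 and 175 FPKM in CFS mice and at 209.7, 183 and 213 in CSS mice, with an interval from -0.27 to 0.60. For Lama2 the interval was -0.17 to 0.50, so the fall measured under Ang II lay outside it, as it did for Lamc3 and Lamb2. These intervals use a spread pooled over all 4 groups, so they also carry the spread of the CSA mice. For Lama5 the SE was 0.36, and 0.14 with only the CSS and CFS groups fitted (adjusted p = 0.34, limma).

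Ang II itself was compared within each genotype. In CCN2fl/fl mice 0 of 8 chains passed (CFA against CFS), where 0.0341% of all genes did, and 1383 genes had an unadjusted p under 0.05. Lama4 was the 1 chain with an unadjusted p under 0.05. It was at 21.8, 18.3 and 23.6 FPKM in CFS mice and below all of these in CFA mice, and the difference was -0.54 (SE 0.18, adjusted p = 0.33). CFA mice also lay below all CFS mice for Lamb2 (-0.19, adjusted p = 0.89) and Lamc3 (-0.46, adjusted p = 0.82), neither of which passed. Over all tested genes, 20.2% had groups that did not overlap. The 8 estimates had a median of -0.20.

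In CCN2SMCΔ mice (CSA against CSS) 7 chains fell and 1 rose, where 23.9% of all genes fell and 22.3% rose. This comparison shares its CSA mice with the comparison above. Lama2 was at 10.2, 8.48 and 8.90 FPKM in CSS mice and differed by -2.40, Lama3 by -1.59, Lama4 by -1.24 and Lama5 by -2.62. Lamb2 differed by -2.42, Lamc1 by -0.86 and Lamc3 by -5.93, the 7th lowest of the 14676 genes. With a pseudocount of 1 the differences were -0.77 for Lama3 and -4.20 for Lamc3. Lamb1 was at 3.71, 3.87 and 2.40 FPKM in CSS mice and was higher by 1.65 in CSA mice (SE 0.30, adjusted p = 0.00105). Each of the 8 calls passed under every alternative, at an adjusted p under 0.05, in which its chain was fitted. With the filter at a mean FPKM of at least 5, Lama3 was not fitted and 6 chains fell.

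**Figure D3:**
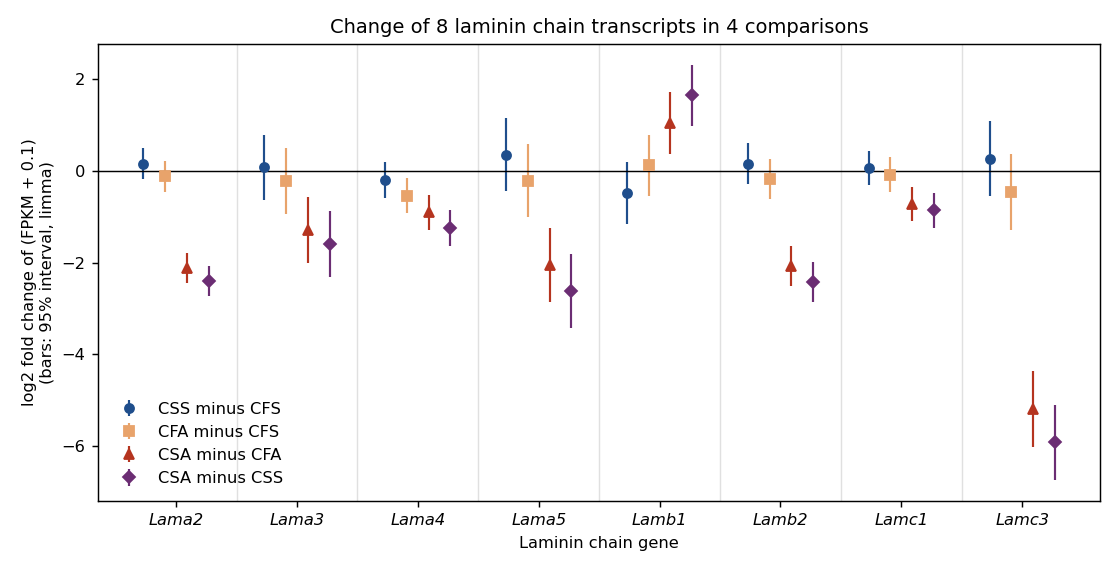
Difference in log2(FPKM + 0.1) of the 8 tested chains in 4 comparisons, with 95% intervals from limma. The intervals of both comparisons with CSA mice lie below 0 for 7 chains and above 0 for Lamb1, while those of CSS minus CFS include 0 for all 8.

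The interaction of genotype and treatment, which sets the CSA minus CFA difference against CSS minus CFS, passed for 7 of the 8 chains, with 6 lower and 1 higher, where 13.7% and 12.8% of all genes did so. It was -5.47 for Lamc3 (SE 0.53, adjusted p = 6.44e-05), -2.41 for Lama5, -2.28 for Lama2 and -2.23 for Lamb2. Lamb1 had 1.53 (adjusted p = 0.0226), and lost the call without CSS56 (adjusted p = 0.0576) or without CFA71 (0.0580). The values of Lama3 (-1.37, adjusted p = 0.0482) and Lamc1 (-0.78, adjusted p = 0.0342) lay near the threshold, and Lama3 lost its call in 14 of 19 alternatives and Lamc1 in 12 of 20. Lama4 did not pass (-0.70, adjusted p = 0.0589).

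Laminins act through receptors on the cell, so 9 receptor genes were set beside the chains. Itga2, a subunit of a receptor for collagen and laminin, passed the filter on low values only through the CSA mice. Of the other 8, 7 fell and 1 rose in CSA relative to CFA mice, with a median of -1.70, where 21.2% of all tested genes fell and 19.5% rose. These shares, here and below, keep the genes that passed the filter only through the CSA mice. Bcam, an immunoglobulin family receptor that binds the α5 chain, fell from 220 ± 20.3 to 26.5 ± 10.97 FPKM (SD, n = 3), by 3.15 on the log2 scale (adjusted p = 9.89e-06). Itga7, the integrin subunit of muscle laminin receptors, fell from 23.9 ± 3.20 to 3.77 ± 1.49 FPKM, by 2.72. Itga2 was at 0.714, 1.01 and 0.622 FPKM in CFA mice and at 4.68, 3.20 and 6.42 in CSA mice, values that are given with no test. The receptor that rose, named after its value was seen, was Itga6 (2.19, from 3.03 ± 0.630 to 14.2 ± 3.40 FPKM). Without CSA03, 6 receptors fell.

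Of 15 other basement membrane genes, 12 fell and 1 rose, with a median of -1.73, against the same 21.2% and 19.5% of all tested genes. Col4a4 (-4.28) and Col4a3 (-4.07), chains of type IV collagen, went from 11.9 ± 1.36 to 0.555 ± 0.257 FPKM and from 7.61 ± 0.911 to 0.367 ± 0.115. Npnt, nephronectin, fell from 191 ± 41.5 to 19.7 ± 0.527 FPKM (-3.25). The 1 gene that rose, named after its value was seen, was Nid2 (0.91, adjusted p = 0.0139), one of the nidogens that link laminin to type IV collagen.

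The dystrophin complex joins laminin, through dystroglycan, to the cytoskeleton. Of its 13 genes 11 fell and 0 rose (median -2.11), against 21.2% and 19.5% of all tested genes. Dmd, dystrophin, fell from 12.5 ± 0.846 to 1.24 ± 0.293 FPKM (-3.25), and Sgca, α-sarcoglycan, from 11.8 ± 1.92 to 1.37 ± 0.697 (-3.14). Laminin binds dystroglycan only after a sugar chain has been built on it. Of 13 genes of that pathway 11 were tested, 8 fell and 0 rose (median -0.89), beside those same shares. These were smaller differences, with -2.04 for Pomgnt2 and -1.27 for B3galnt2.

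**Figure D4:**
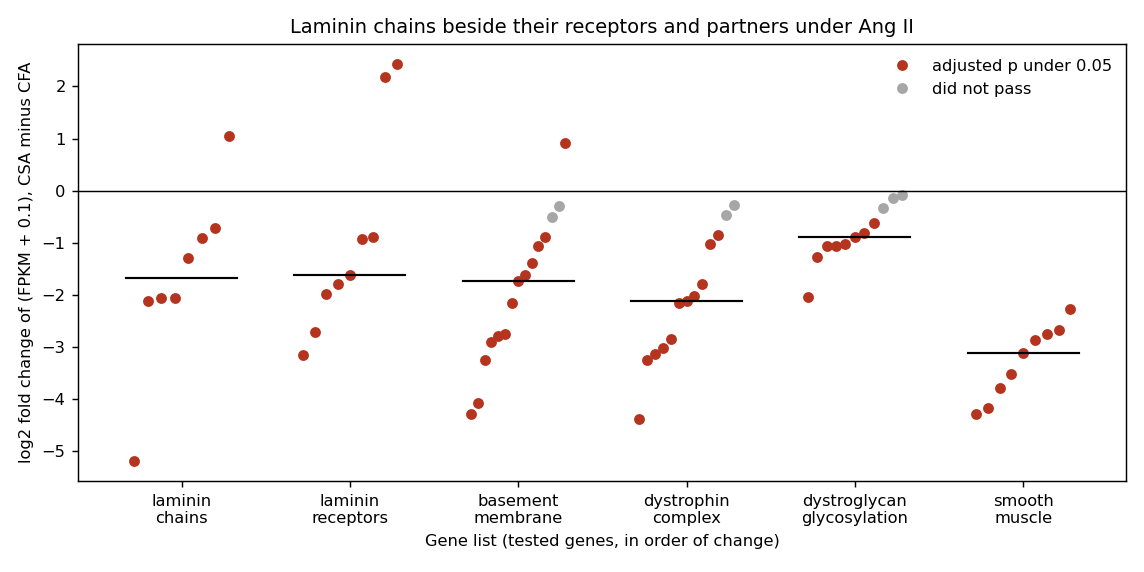
Difference in log2(FPKM + 0.1) between CSA and CFA mice for the tested laminin chains and for genes of 5 further lists, 1 point per gene in order of size, red for an adjusted p under 0.05, with a bar at each list's median. The medians are -1.67 for the chains, -1.61 for the 9 receptors with Itga2, -1.73 for the basement membrane genes, -2.11 for the dystrophin complex, -0.89 for dystroglycan glycosylation and -3.12 for smooth muscle markers. Itga2 passed the filter only through the CSA mice, so the colour of its point is not counted as a call. The receptor median without Itga2 is -1.70.

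In CSS relative to CFS mice 0 genes of any of these lists passed, where 0.0204% of all tested genes did. The medians were 0.09 for the receptors, 0.24 for the basement membrane genes, 0.14 for the dystrophin complex and 0.02 for the glycosylation genes. In CFA relative to CFS mice 0 passed as well, where 0.0341% of all tested genes did.

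Markers of cell types that the sample could hold were set beside the chains, and they did not all move one way. All 9 smooth muscle markers fell in CSA relative to CFA mice (median -3.12), led by Synpo2 (-4.28), Myh11 (-4.17) and Cnn1 (-3.80). Of 10 endothelial markers 3 fell, Vwf (-2.36), Tek (-1.89) and Pecam1 (-1.84), and 1, Emcn (1.56), rose, where 21.2% and 19.5% of all tested genes did so. Emcn was named after its value was seen. The median over the 10 was -0.64, and their sum was 284 to 532 FPKM in CFA mice and 181 to 225 in CSA mice. In CFS mice that sum was 143 in CFS69 and 482 and 483 in the others, while Lama5 was at 54.4 FPKM in CFS69 and at 46.1 and 50.1 in the others, and Lama4 at 18.3 in CFS69 and at 21.8 and 23.6 in the others. Of 9 leukocyte markers 3 passed the filter only through the CSA mice, and all of the other 6 rose (median 3.15). For the whole list, the sum was 51.0 to 104 FPKM in CFA mice and 532 to 566 in CSA mice. Of 7 fibroblast markers 3 rose and 2 fell, and the sum was 3117 to 3442 FPKM in CFA mice and 5142 to 6099 in CSA mice.

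Of 9 Schwann cell markers 7 were tested, 1 rose and 1 fell, where 19.5% and 21.2% of all tested genes did so. Their sum was 10.7 to 14.5 FPKM in CFA mice and 17.97 to 23.97 in CSA mice. Of 9 skeletal muscle markers 5 were tested, and 1 of these passed the filter on low values only through the CSA mice. Of the other 4, 0 rose or fell, where 40.7% of all tested genes were called in either direction. Ckm and Myh4 were listed at 0 in all CSA mice. The sum over the skeletal muscle list was 163 FPKM in CFS68 and 260 in CSS55, against 3.13 to 5.75 in the other 10 mice. Lama2 was at 8.02 FPKM in CFS68 and 8.48 in CSS55, within the range of the other saline mice. Of 8 epithelial markers 1 was tested, Cdh1, at 1.99, 1.56 and 2.497 FPKM in CSA mice and at most 0.361 in the others. It passed the filter only through the CSA mice, so its call is not counted here. The sum over the list was 1.95 to 2.64 FPKM in CSA mice, with Krt5 and Krt14 listed at 0. Of 8 mesothelial markers 1 was tested and did not pass. Of 6 adipocyte markers 2 fell, beside 21.2% of all tested genes. The adipocyte sum was 647 FPKM in CFS70 and 183 and 199 in the other CFS mice. Lamb1 was at 7.52 FPKM in CFS70 and at 3.88 and 3.27 in the other CFS mice. The part of these cell types in the laminin differences was not tested.

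The genes whose profile over the 12 mice lay nearest to each tested chain were sought among 7778 genes with a mean of at least 5 FPKM, by the root mean square difference of centred log2 values. The nearest pair was Lamb2 and Itga3, a subunit of a laminin-binding integrin, at 0.087, with Itga3 at 40.5 ± 1.44 FPKM in CFS mice and 9.25 ± 2.497 in CSA mice (SD, n = 3). Pbxip1 (0.110) and Cavin1 (0.120) followed for Lamb2. Lama2 was nearest to Utrn, the dystrophin relative utrophin, at 0.107, then to Myh10 and Dst. Lamc1 was nearest to Usp34 at 0.102, then to Edem3 and Lmbrd1. For Lama4 they were Zhx2 at 0.166, Laptm4b and Insr, for Lama5 Fxyd1 at 0.200, Pitpnm2 and Dusp3, and for Lama3 Fam135a at 0.149, Kitl and Ptprm. Lamb1 was nearest to Sned1 at 0.230, Dram1 and Nsg1, whose differences between CSA and CFA mice were 0.90, 1.16 and 1.23. Lamc3 had no close neighbour, the nearest being Ccdc3 at 0.403, Stum and Tceal6.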

How the data were processed

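RNA-Seq libraries of 12 abdominal aortas, grouped by the sample labels, were analysed from 1 table with 0 columns unused. The authors deposited FPKM per gene and mouse, without pooling. The submitters' processing notes list HISAT2 2.0.5, StringTie 1.3.3b, featureCounts 1.5.0-p3 and mm10, with no role stated, and the strand setting of the counting is not given in the sources used here. The 9 members and all gene lists were chosen with earlier results of these data known.

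With GENCODE M21 exon lengths, 98.05% to 98.53% of values under 100 fragments came out whole (within 0.05), and depth was taken from these recovered fragments. The 95% intervals rest on the spread between mice within groups, pooled over all 4 groups. The deposited FPKM were already scaled, since median-of-ratios factors were 1.01 in all 12 libraries. FPKM are not counts, so the study's DEG-Seq was replaced by limma 3.58.1 in R 4.3.3 (eBayes, trend and robust) on log2(FPKM + 0.1), keeping genes that reached an FPKM of 1 in 3 or more libraries, with 1 coefficient per group and no covariate. Figures were drawn with matplotlib 3.10.9, and tables with pandas 2.3.3 and numpy 2.4.6, in Python 3.11.15. The fit was first tested on simulated data. No 2 libraries were close enough to be 1 library deposited again.

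The genes named are the 9 members, the 3 tested genes of each list with the largest difference between CSA and CFA, and the 3 nearest profiles per chain. Some genes that this rule selects are left out of the text. Named outside the rule are Ccn2, Itga6, Nid2, Emcn, Myh4, Krt5, Krt14, Lama1 and the genes that share exonic bases with a member. Alternatives were another pseudocount, other filters, other scalings, other limma settings, only the groups compared, a fold limit, limma's treat and leaving out each mouse. Scaling to recovered library totals, and the lists without CSA03, were added after seeing the data.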

Additional observations from a re-analysis of the deposited data

Results flagged for a closer look

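For 7 chains the genotype effect under Ang II differed from that under saline by the interaction test of limma over 3 mice per group. The interaction on the log2 scale was -5.47 for Lamc3, -2.41 for Lama5, -2.28 for Lama2, -2.23 for Lamb2, -1.37 for Lama3, -0.78 for Lamc1 and 1.53 for Lamb1. For Lamc3, Lama5, Lama2 and Lamb2 it passed under all 20 alternatives that were fitted. For Lama3, Lamc1 and Lamb1 it did not. With a pseudocount of 1 it was -3.76 for Lamc3 and -0.64 for Lama3. In each of the 7 chains the 3 CSA mice lay outside the range of the 3 CFA mice, as in 48.5% of all tested genes, while CSS and CFS mice overlapped, as in all but 20.4% of them. With 3 mice per group, no test for a single mouse far from its group was run on the chains.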

How the results depend on the processing

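In CSA relative to CFA mice, 7 chains fell in every fit that left out 1 mouse, and 4 fell and 0 rose with the fold limit of 1.5. The count that rose ran from 0 to 1 when 1 mouse was left out, at 0 without CFA71 or CSA01. The interaction count that rose also ran from 0 to 1, at 0 without CSS56 or CFA71. The cause was not tested. Estimates far from the threshold changed sign when 1 mouse was left out. In CSS minus CFS, Lama3 ran from -0.13 to 0.18 and was -0.05 without CSS55, and Lamc1 from -0.015 to 0.11. In CFA minus CFS, Lamb1 ran from -0.11 to 0.48 and Lamc1 from -0.14 to 0.018. Lamb1 in CSS minus CFS kept its sign, at -0.72 without CFS69 and -0.13 without CFS70. The count of chains with a lower interaction ran from 4 to 7. The summed β FPKM of CFA mice was 160.1 with equal library totals. Lama4 passed the interaction in 3 of 20 alternatives. With limma's array weights, 82 of all tested genes were higher and 66 lower in CSS relative to CFS mice. In CFA relative to CFS mice, 336 were higher and 165 lower with these weights, and 152 and 32 without CFA74. With only the CFA and CFS groups fitted, 0 were higher and 0 lower. In both of these comparisons 0 chains passed under any alternative. Scaling by recovered library totals moved the median over all genes in CSA minus CFA from -0.04 to 0.12 and the share of higher genes among those called from 47.9% to 60.0%, and under it 7 chains still fell and 1 rose. Lamc3 in CSA mice and Lamb3 in all mice rest on few fragments, which limits the precision of their differences. No paired analysis was possible because the groups share no replicate numbers.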

Other observations

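Lama1, the α1 chain of early embryonic basement membranes, was at the edge of detection. It had 0 to 5 fragments in each of the 9 libraries of the CFS, CSS and CFA groups, and 22, 52 and 10 fragments in CSA01, CSA02 and CSA03. It did not pass the filter on low values. Since it was seen mainly in the CSA mice, its values are given with no test.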
